A study of Mus musculus with 2 samples.

Results

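The genes described here were the naive state regulators Esrrb, Tfcp2l1, Klf2 and Klf5, the F-box gene Fbxo15 and the alkaline phosphatase gene Alpl. These are 6 of the 11484 genes named on the array. They were chosen with earlier results of these data known, were found by symbol in the annotation of the platform, and each was read by 1 probe. The RNA came from 2 samples of mouse cells, both of embryonic origin and of the strain C57/ICR, hybridised to a 1-colour Phalanx mouse oligonucleotide array. The small-molecule-generated stem cells, called stem where values stand in pairs, were at passage 5 in ES (embryonic stem) medium, and the parental cells from which the comparison starts were at passage 1 in medium with FBS (fetal bovine serum). The compound and the parental cell type are not given in the labels, and the samples differed in passage and medium as well as in treatment. The design text names 3 replicates of each sample, whereas 1 column of values per sample was analysed, so no test between the samples was possible. Whether a column holds 1 array or a mean of several is not known. The values below are the authors' normalised intensities on a linear scale. The 25th percentile of each column, 93.4 in the small-molecule-generated cells and 93.8 in the parental cells, was taken as a floor under which a probe was called dim, and 9766 genes were above it in at least 1 sample.

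Naive pluripotency is the state of the preimplantation epiblast, which mouse ES cells keep in culture. It rests on transcription factors that act in parallel below leukemia inhibitory factor (LIF) and WNT signals. STAT3 activates Tfcp2l1 and some but not all Klf genes, and inhibition of the kinase GSK3 relieves Esrrb and Tfcp2l1 of repression by TCF7L1. The orphan nuclear receptor ESRRB, the CP2 family factor TFCP2L1 and the Krüppel-like zinc finger factors KLF2 and KLF5 then sustain the network. Fbxo15, an F-box gene and target of OCT4 and SOX2, and Alpl, the tissue-nonspecific alkaline phosphatase stained in ES cell colonies, are widely used as its readouts.

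The promoters of 4 of these genes are shown, and the responses of these genes differed widely. Klf5 had no entry in the promoter set, and the window of Fbxo15 was not used. Sequences are from RefSeq on GRCm38.p6 and cover 250 bases before to 50 bases after an annotated transcription start, the most upstream one where a gene had several. Capitals mark matches on either strand to 7 motifs. These were the TATA box, spelled TATAAA, the GC box, spelled GGGCGG, and the CACCC box, which Krüppel-like factors read, searched as CCACCC. The others were the half-site of estrogen-related receptors, AAGGTCA, the paired site of CP2 factors, CCNGNNNNNNCCNG, the STAT site, TTCNNNGAA, and the octamer read by OCT4, ATTTGCAT. The Esrrb window is chr12:86360867-86361166 on the plus strand, the Tfcp2l1 window chr1:118627695-118627994 on the plus strand, the Alpl window chr4:137796335-137796634 on the minus strand and the Klf2 window chr8:72318812-72319111 on the plus strand.
Esrrb: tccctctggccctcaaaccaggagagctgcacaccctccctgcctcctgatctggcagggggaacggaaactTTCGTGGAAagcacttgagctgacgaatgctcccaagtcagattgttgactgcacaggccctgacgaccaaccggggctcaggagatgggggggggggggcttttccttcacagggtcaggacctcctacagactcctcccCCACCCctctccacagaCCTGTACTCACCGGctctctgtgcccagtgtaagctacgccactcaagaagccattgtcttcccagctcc
Tfcp2l1: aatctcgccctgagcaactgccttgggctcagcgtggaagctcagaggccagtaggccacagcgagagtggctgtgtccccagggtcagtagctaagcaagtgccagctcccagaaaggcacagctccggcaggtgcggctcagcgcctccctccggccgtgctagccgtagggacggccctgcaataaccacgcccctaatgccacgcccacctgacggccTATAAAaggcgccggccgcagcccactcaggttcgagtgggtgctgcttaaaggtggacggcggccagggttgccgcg
Alpl: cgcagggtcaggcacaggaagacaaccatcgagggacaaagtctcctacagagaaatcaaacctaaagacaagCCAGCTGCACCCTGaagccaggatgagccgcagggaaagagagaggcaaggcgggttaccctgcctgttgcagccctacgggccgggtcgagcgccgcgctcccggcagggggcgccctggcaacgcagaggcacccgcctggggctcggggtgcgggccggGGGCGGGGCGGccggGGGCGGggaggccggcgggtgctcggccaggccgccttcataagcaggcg
Klf2: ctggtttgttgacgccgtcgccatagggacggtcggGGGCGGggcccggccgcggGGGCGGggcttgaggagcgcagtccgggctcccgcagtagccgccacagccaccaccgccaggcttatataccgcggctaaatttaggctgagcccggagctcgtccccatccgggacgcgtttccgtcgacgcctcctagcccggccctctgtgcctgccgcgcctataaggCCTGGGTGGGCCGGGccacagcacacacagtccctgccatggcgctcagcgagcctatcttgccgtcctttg

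The windows shared no single arrangement. Tfcp2l1 had a TATA box whose first base lay at position -28 from the start, and no other match. Such a box, at any position, was found in 13.6% of the 32851 promoter windows of the table. Esrrb had a STAT site at -178 (8.30% of windows hold one), a CACCC box at -37 (31.5%) and a paired CP2 site at -20 (29.5%). Its other annotated start, chr12:86421394-86421693, held 1 CACCC box. Alpl had 3 GC boxes (35.7% of windows hold at least 1), of which 2 overlapped by a base, and a paired CP2 site. Its downstream start, chr4:137766426-137766725, held a TATA box match at -192 and a CACCC box. Klf2 had 2 GC boxes, and a CACCC box that lay within 2 overlapping CP2 matches. No window held the AAGGTCA half-site (4.72% of all windows do) or the octamer (1.74%). Base composition differed as well, with 60% G and C in the Esrrb window, 65.3% in that of Tfcp2l1, 70% in that of Alpl and 69.3% in that of Klf2, against a median of 52.7% over the table. The ratio of observed to expected CpG was 0.27, 0.66, 0.72 and 0.89 in the same order, with a median of 0.38. The array does not tell which start was in use, and a match describes letters, not binding.

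In the small-molecule-generated cells 5 of the 6 genes were higher by 8-fold or more, and Klf2 was within 2-fold of the parental cells. Over all genes above the floor, 22.1% were 2-fold or more higher, 22.6% were 2-fold or more lower and 2.99% were 8-fold or more higher. With dim values raised to the floor, 20.5% were 2-fold or more higher and 20.8% lower. The counts of every group below are to be read beside these shares. The median log2 difference of the 6 genes (small-molecule-generated minus parental) was 7.01, or 6.46 with dim values raised to the floor, whereas it was 0.12 over the 9766 genes. All 6 were above the floor in the small-molecule-generated cells, and Esrrb, Tfcp2l1 and Fbxo15 were under it in the parental cells. Esrrb, Tfcp2l1 and Fbxo15 therefore passed the filter only through the sample in which they were high. Since the 6 genes were chosen with earlier results of these data known, setting them beside all genes describes them and is no test. In a bulk sample, fewer cells that express a gene and less RNA per cell cannot be told apart.

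**Figure D1:**
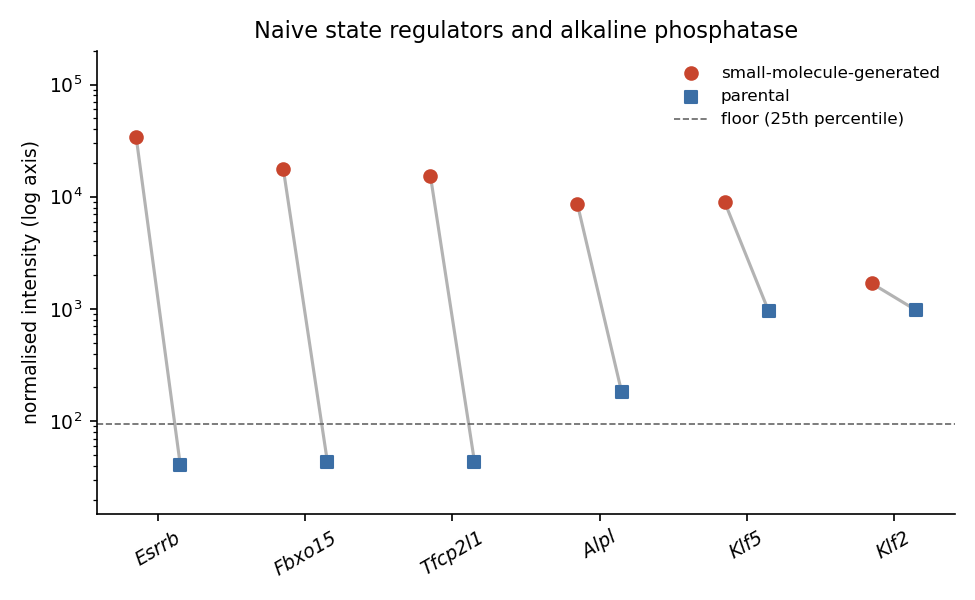
Normalised intensity (log axis) of the 6 genes in the small-molecule-generated cells (circles, left) and the parental cells (squares, right), 1 probe and 1 value per sample, joined by a line. The dashed line is the floor, drawn at 93.4. Esrrb, Fbxo15 and Tfcp2l1 lay under the floor in the parental cells, Alpl just above it, and Klf5 and Klf2 well above it.

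Esrrb, the nuclear receptor that can stand in for Nanog in ES cell self-renewal, was at 33968 in the small-molecule-generated cells, against 40.6 in the parental cells. The parental value is below the floor, so the fold is a lower bound, at least 362-fold higher. Its log2 difference, 9.71 by the measured values and 8.50 with dim values raised to the floor, was the largest of all 9766 genes either way. The value lies below the highest value of the column, 65494, although a mean of arrays, if the column is one, need not show a single array at its ceiling.

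Tfcp2l1, a LIF target whose product binds DNA beside ESRRB and OCT4 in ES cells, was at 15457 in the small-molecule-generated cells and at 43.4 in the parental cells, at least 165-fold higher. Fbxo15, whose locus carried the selectable reporter of early reprogramming experiments, was at 17816 in the small-molecule-generated cells and also at 43.4 in the parental cells, at least 190.0-fold higher. Both were dim in the parental sample and bright in the other. With dim values raised to the floor, the log2 difference of Fbxo15 was 7.57 and ranked 4 among the 9766 genes, and that of Tfcp2l1 was 7.36 and ranked 6. By the measured values they were 8.68 and 8.47, at ranks 4 and 5.

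Alpl encodes a cell surface enzyme anchored by a lipid that removes phosphate from pyrophosphate and from pyridoxal phosphate. It was at 8563 in the small-molecule-generated cells and at 183 in the parental cells, a 46.8-fold difference. The parental value was 1.95 times the floor, so Alpl, unlike the preceding genes, was above the floor in both samples and its fold is not a bound. Its log2 difference of 5.55 ranked 51, or 25 with dim values raised to the floor.

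Both Krüppel-like factor genes were above the floor in both samples. Klf5, which is needed in the early embryo for the epiblast and trophectoderm and is also expressed in epithelia, was at 9021 in the small-molecule-generated cells and at 955 in the parental cells, 9.45-fold higher. Its log2 difference of 3.24 ranked 246, or 177 with dim values raised to the floor. Klf2, a factor of ES cells that is also expressed in endothelium and T cells, was at 1691 in the small-molecule-generated cells and at 978 in the parental cells, 1.73-fold higher. Its log2 difference of 0.79 ranked 2721, or 2545 with dim values raised to the floor, and 72.1% of genes had a smaller measured one. The parental sample thus read Klf5 at 10.2 times and Klf2 at 10.4 times its floor.

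**Figure D2:**
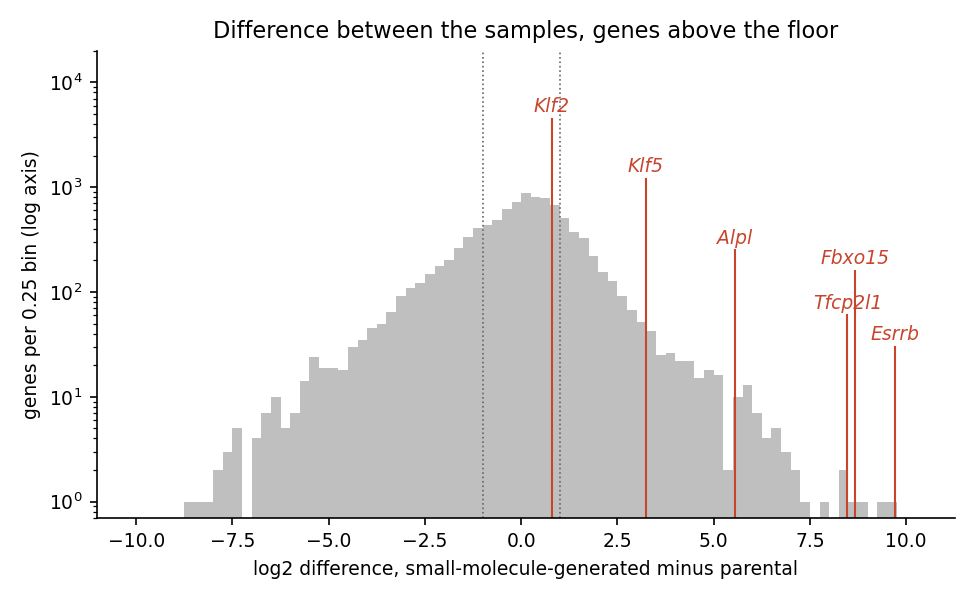
Distribution of the log2 difference (small-molecule-generated minus parental) over the 9766 genes above the floor, in bins of 0.25 with a log count axis. Red lines mark the 6 genes, their heights carry no value, and dotted lines mark 2-fold. Klf2 at 0.79 lies in the bulk of the distribution and Esrrb at 9.71 at its upper end.

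How far a single probe can be trusted was read from 601 genes with exactly 2 probes, both above the floor in at least 1 sample. The SD of the log2 difference of 1 probe around its gene was 1.05, or 2.08-fold. The difference of Klf2 was smaller than this SD, and those of the other 5 genes were larger. Each pair was read from both sides, so a gene with both probes past a cut was counted once per probe. This gives agreeing pairs more weight. Of 25 probes with a log2 difference of 3 or more, the partner probe was also higher in 24 and 2-fold or more higher in 19, with a median of 2.53 and a range of -1.27 to 6.20. The 4 probes at 5 or more had partners between 2.10 and 6.20, and none of these probes reached 8. Of 171 probes at 0.5 to 1, the range that holds Klf2, the partner was above 0 in 67.3% and 2-fold or more higher in 27.5%, with a median of 0.49. Differences between cultures are not part of this error.

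**Figure D3:**
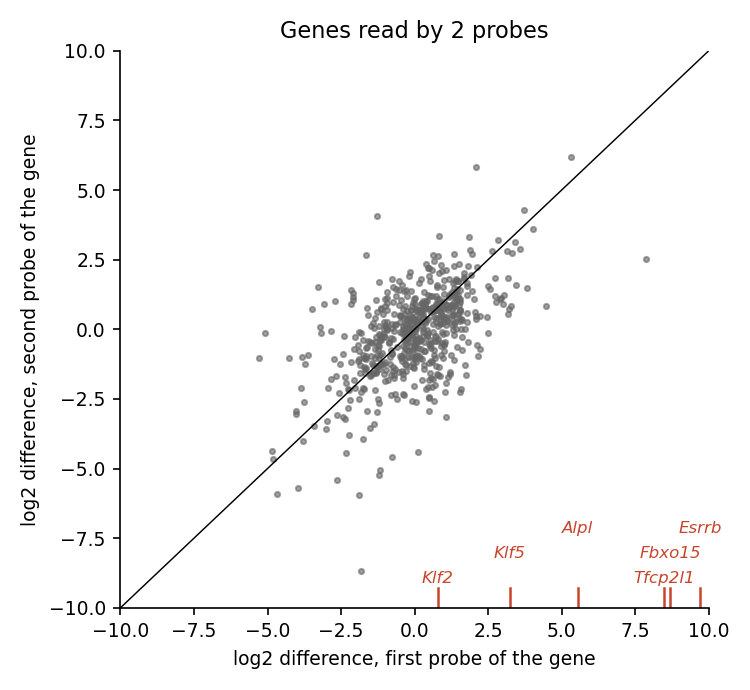
Log2 difference (small-molecule-generated minus parental) of the first probe (x) and second probe (y) of the 601 genes read by 2 probes, with the line of equality. Red ticks on the x axis mark where the single probes of the 6 genes lie. Probes of a gene scattered with an SD of 1.05, and no pair reached the differences of Tfcp2l1, Fbxo15 and Esrrb on both axes.

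The genes whose 2 values were nearest to each member were found by the Euclidean distance over both log2 intensities, thus over 2 samples, which describes readings of different probes and not an order of levels. For Esrrb the 3 nearest were Fgf4, a growth factor gene of ES cells (distance 0.92), Fbxo15 (0.94) and Tfcp2l1 (1.14). For Tfcp2l1 they were Fbxo15 (0.20), Fgf4 (0.26) and Fam25c (0.73), and for Fbxo15 they were Fgf4 (0.13), Tfcp2l1 (0.20) and Fam25c (0.72). Fgf4 was at 18021 in the small-molecule-generated cells and 39.7 in the parental cells, and Fam25c was at 17001 in stem and 26.4 in parental cells. The parental values of all these genes were under the floor, where they have no order, so the distances were also taken with dim values raised to the floor, a choice made after seeing the data. Then Gpd1, a glycerol phosphate dehydrogenase gene, was the nearest to Esrrb (0.55), before Fgf4 (0.91) and Fbxo15 (0.93). Fam25c was the nearest to Tfcp2l1 (0.14), before Fbxo15 (0.20) and Fgf4 (0.22), and Fgf4 stayed the nearest to Fbxo15 (0.016), before Fam25c (0.068) and Tfcp2l1 (0.20). For Alpl the nearest genes were Rpp25 (0.30), Cobl (0.48) and Hsd17b14 (0.49), and for Klf5 they were Slc25a13 (0.11), Prorp (0.24) and Kat6b (0.29). Klf2 lay among many genes, with Arrdc4, Ier2 and Gm2a at 0.03, 0.04 and 0.04. Ier2 is the mean of 2 probes on the log2 scale, and neither probe alone was near Klf2. One read 13376 in stem and 6408 in parental cells, the other 206 in stem and 154 in parental cells. Within a distance of 0.5 there were 273 genes around Klf2, 12 around Klf5 and 3 around Alpl.

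Among the other Krüppel-like factor genes no common direction was seen. Of 11 measured, 3 were 2-fold or more higher, 4 were 2-fold or more lower and 4 were within 2-fold, with a median log2 difference of -0.24, against 0.07 over all 11484 genes. Klf6, a widely expressed factor induced by injury, was 13.7-fold lower, at 964 in the small-molecule-generated cells and 13166 in the parental cells. Klf9, a factor induced by glucocorticoids, was 2.58-fold lower (stem 1342, parental 3458), and Klf13 was 2.49-fold lower (stem 408, parental 1015), with both of its probes lower (log2 differences of -1.66 and -0.97). Klf12 was 2.46-fold lower by the measured values (stem 61.8, parental 152), or at least 1.63-fold since the small-molecule-generated cells were under the floor.

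In the opposite direction, Klf8 was 2.36-fold higher (stem 292, parental 124). Klf10, a gene induced by TGF-beta, was 2.11-fold higher (stem 2771, parental 1316), and it was within 2-fold after intensity-dependent centring (log2 0.93) and after centring by probe class (0.91), where each of 3 classes of probe identifier is set to a common median in each sample. Klf1, the erythroid factor, was just above the floor in stem at 97.7 and under it in parental cells at 40.6, so its fold has only a bound of 1.04. Klf11, Klf14, Klf15 and Klf16 were within 2-fold, with log2 differences of -0.24, 0.43, -0.54 and 0.69. Klf5 therefore had the highest log2 difference of the 13 Krüppel-like factor genes measured. Klf4 was not analysed here.

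**Figure D4:**
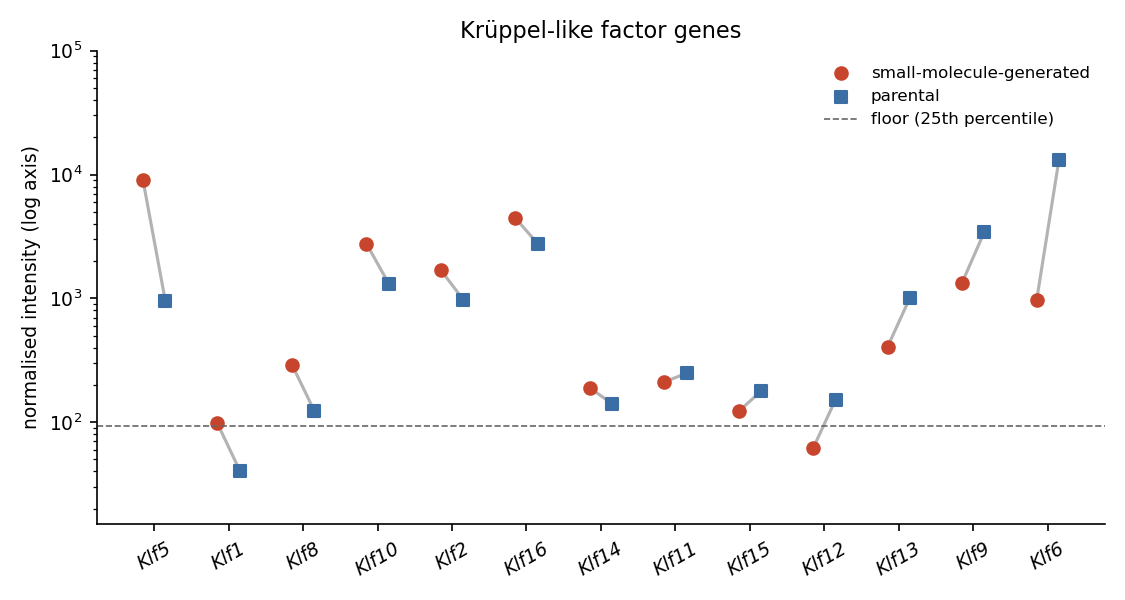
Normalised intensity (log axis) of 13 Krüppel-like factor genes in the small-molecule-generated cells (circles, left) and the parental cells (squares, right), ordered by log2 difference. The dashed line is the floor, drawn at 93.4, and Klf13 is the mean of its 2 probes on the log2 scale. Klf5 was 9.45-fold higher, Klf6 was 13.7-fold lower, and the genes between them differed by less than 3-fold.

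Relatives and partners of ESRRB were higher apart from its paralog. Of 4 measured genes, 3 were higher by 2-fold or more and 0 were lower. Nr0b1, an orphan receptor known as DAX1, was at 2554 in the small-molecule-generated cells and 101 in the parental cells, 25.3-fold higher. Its parental value was just above the floor, so this fold is uncertain. Nr5a2, the receptor that activates Pou5f1, was at 264 in stem and 42.7 in parental cells, at least 2.81-fold higher. Ncoa3, a coactivator that ESRRB uses in ES cells, was at 2525 in stem and 368 in parental cells, 6.86-fold higher. Esrra, the paralog of Esrrb with a role in mitochondrial genes, was at 327 in stem and 387 in parental cells, a log2 difference of -0.24.

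The paralogs of Tfcp2l1 behaved differently from it. Tfcp2 was 2.19-fold lower, at 274 in the small-molecule-generated cells and 599 in the parental cells, or within 2-fold (log2 -0.96) after centring by probe class. Ubp1 was 1.95-fold higher (stem 5256, parental 2701), and past 2-fold (log2 1.13) after the same centring. The measured core subunits of the SCF ubiquitin ligase, to which F-box proteins bind, went opposite ways. Skp1, the adaptor, was 2.74-fold higher (stem 7896, parental 2883), and Rbx1, the RING subunit, was 4.18-fold lower (stem 787, parental 3291) with both probes near -2 (log2 -2.04 and -2.09). Of 23 other Fbxo genes, a group added after the values were seen, 7 were 2-fold or more higher, 3 were lower, 12 were within 2-fold and 1 was dim. Over all genes above the floor, 22.1% were 2-fold or more higher and 22.6% lower. The log2 differences of the other Fbxo genes ran from -1.61 (Fbxo38) to 1.96 (Fbxo2), below the 8.68 of Fbxo15. The 2 probes of Fbxo31 went opposite ways (-0.99 and 1.09).

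The other alkaline phosphatase genes were dim or nearly so. Alpi, the intestinal enzyme, was at 118 in the small-molecule-generated cells and 104 in the parental cells, while Alppl2, the embryonic enzyme (stem 44.9, parental 50), and Akp3, also intestinal (stem 27.3, parental 32.7), were under the floor in both. Of the genes that handle phosphate and pyrophosphate around ALPL, none of 4 was 2-fold higher and 2 were lower. Slc20a1, a phosphate importer, was 2.95-fold lower (stem 2727, parental 8057), and Ank, which exports pyrophosphate, was 2.66-fold lower (stem 771, parental 2054). Phospho1, a phosphatase of mineralising cells, was 1.87-fold higher (stem 456, parental 244), and Slc20a2 was at 333 in stem and 277 in parental cells. Of the genes for vitamin B6, Pdxp, the phosphatase of pyridoxal phosphate inside the cell, was 6.65-fold higher (stem 3163, parental 475) and Pdxk, the kinase that makes it, was 1.51-fold higher (stem 1229, parental 817).

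The rest of the naive network was mostly higher. Of 10 measured genes, 8 were higher by 2-fold or more and 0 were lower, with a median log2 difference of 4.02, or 3.36 with dim values raised to the floor. Nr0b1 and Nr5a2 are among them and were already counted with the relatives and partners of ESRRB. Gbx2, a homeobox gene below LIF and STAT3, was at 2457 in the small-molecule-generated cells and 138 in the parental cells, 17.8-fold higher. Sox2, Nr0b1 and Zfp42 (at least 16.2-fold) were the other largest differences. Tbx3, a T-box factor below LIF, was within 2-fold, at 2512 in stem and 1647 in parental cells, and so was the pluripotency factor gene Nanog, at 94.7 in stem and 77.7 in parental cells, near the floor.

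Most genes of the formative and primed epiblast that were above the floor were higher as well. Of 10 measured, 6 were 2-fold or more higher, or 5 with dim values raised to the floor, 1 was lower and 3 were dim. Otx2, the homeobox factor that drives the exit from the naive state, was under the floor at 26.5 in the small-molecule-generated cells and 27.6 in the parental cells, and Zic2 and Cer1 were dim as well. Etv5, an ETS gene that responds to FGF and ERK signals, was 8.39-fold higher (stem 13196, parental 1572), and its paralog Etv4 6.43-fold higher (stem 1929, parental 300). Dnmt3b (log2 difference 5.87) and Lefty1 (3.75) were higher too, Sox4 (-2.68) was lower, and Sox3 was above the floor in 1 sample (stem 139, parental 67.1).

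Signalling genes upstream of the network did not share its direction. Of 8 measured genes of LIF, WNT and MEK signalling, 1 was 2-fold or more higher, 3 were lower, 3 were within 2-fold and 1, Apc, was dim. Their median log2 difference was 0.15, and -0.03 with dim values raised to the floor. Jak1, a kinase of the LIF receptor, was 3.02-fold lower (5012 in the small-molecule-generated cells and 15150 in the parental cells), and Jak2 and Stat3 were under the floor in the small-molecule-generated cells at 47 and 44.1, at least 13.8-fold and 8.24-fold lower. Tcf7l1, the repressor of Esrrb, was 2.19-fold higher (stem 4183, parental 1912), but within 2-fold after intensity-dependent centring (log2 0.98) and after centring by probe class (0.97). Axin2, a general WNT target, was at 258 in stem and 196 in parental cells, Socs3 at 2670.2 in stem and 2779 in parental cells, and Map2k2, the MEK2 kinase, at 524 in stem and 401 in parental cells.

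**Figure D5:**
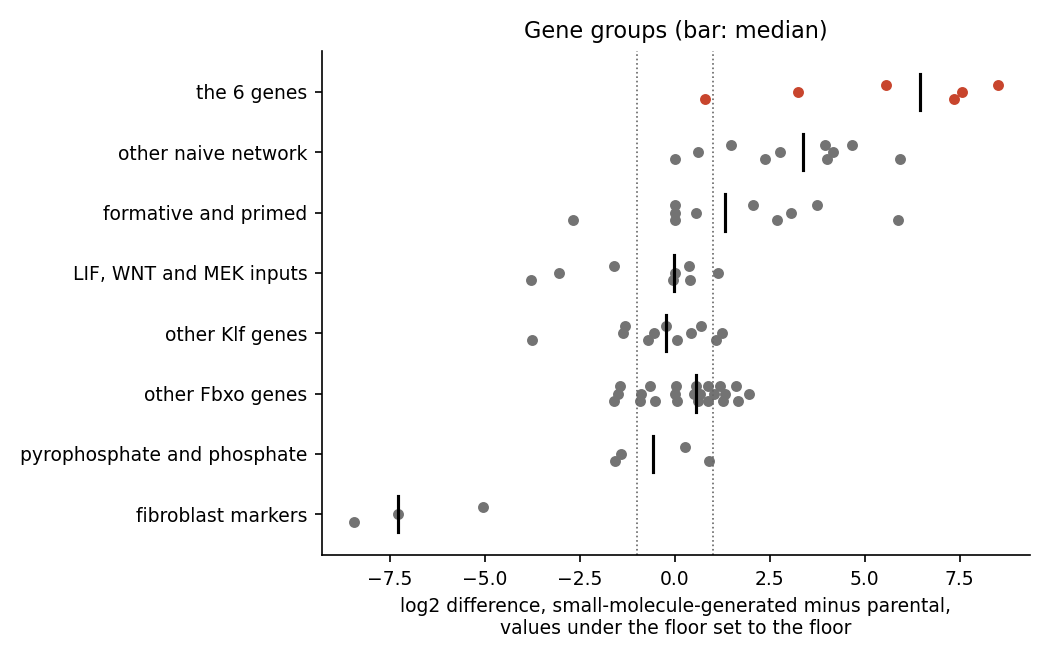
Log2 difference (small-molecule-generated minus parental) of the 6 genes and of 7 other groups, 1 point per gene, with dim values raised to the floor. Black bars are medians and dotted lines mark 2-fold. The median was 6.46 for the 6 genes, 3.36 for the other naive network genes, -0.03 for the signalling inputs and -7.29 for 3 fibroblast markers.

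Several of the 6 genes are also expressed in other cell types, whose markers were read beside them. Only part of each marker list was measured, such as 4 of 9 trophoblast, 3 of 11 fibroblast and 2 of 7 bone markers. The counts below do not speak for the unmeasured markers. Of 6 measured ES cell markers, 5 were 2-fold or more higher, and Nanog was the exception. Nanog, Pou5f1, Sox2 and Zfp42 were also counted in the naive network, so the 2 counts are not separate. The 3 measured fibroblast markers (Thy1, Snai2 and S100a4) were all lower and summed to 351 in the small-molecule-generated cells against 75617 in the parental cells. Of the trophoblast markers, where Esrrb and Klf5 act, 3 of 4 were higher: Krt8, a keratin of simple epithelia, by 12.9-fold (stem 2711, parental 210), Ascl2 by at least 3.58-fold (stem 336, parental 39.7) and Hand1 by 2.19-fold (stem 910, parental 415), or log2 0.97 after centring by probe class. Gata3 was within 2-fold (stem 210, parental 155), and the list summed to 4167 in stem and 819 in parental cells. Of the germ cell markers, where Alpl is also used as a stain, 3 of 4 were higher. Nanos3 was at least 8.44-fold higher (stem 791, parental 67.1) and Dnd1 4.18-fold higher (stem 624, parental 149). Kit was 7.52-fold higher (stem 737, parental 98), an uncertain fold since its parental value was just above the floor. Ddx4 was at 258 in stem and 191 in parental cells. That list summed to 2410 in stem and 505 in parental cells.

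Of the bone markers, where Alpl serves mineralisation, Sp7 was at 214 in the small-molecule-generated cells and 105 in the parental cells and Bglap at 127 in stem and 69.9 in parental cells, summing to 342 in stem and 175 in parental cells. Of 5 endothelial markers, where Klf2 is expressed, Vwf was at least 7.05-fold higher (stem 661, parental 36.7), Flt1 was at least 7.39-fold lower (stem 63.8, parental 691), Pecam1 was dim, Cdh5 was at 206 in stem and 122 in parental cells and Kdr at 77 in stem and 117 in parental cells. They summed to 1088 in stem and 1015 in parental cells. Of 6 leukocyte markers 1 was higher and 3 were lower. C1qa was at least 34.2-fold lower (stem 35.7, parental 3198) and Fcer1g 9.17-fold lower (stem 206, parental 1894). Cd68 was lower only without centring by probe class (log2 -0.82 with it). The list summed to 13142 in stem and 7496 in parental cells, where Laptm5, the higher gene, gave 12204 of the stem sum. Of 3 primitive endoderm markers 1 was lower, Gata6 by 12.2-fold (stem 142, parental 1733), Gata4 was within 2-fold (stem 529, parental 336) and Sox17 was dim, with sums of 713 in stem and 2097 in parental cells. The part of any of these cells in the values of the 6 genes was not tested.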

How the data were processed

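The deposited values are linear intensities that the authors had normalised, 1 column per sample. Per the labels, total RNA was amplified and coupled to Cy5. The scanner, background correction and normalisation method were not given in the sources used here. Gene symbols came from the platform annotation, and 12364 of 12380 named probes took their current symbol by Entrez identifier from RefSeq (GRCm38.p6), while 1609 probes stayed unnamed. Intensities were brought to log2 and probes of a gene averaged. With 1 sample per group no test was run, and genes were described by fold, beside the share of all genes at 2-fold or more. The number of arrays limits the precision. Against a value under the floor (25th percentile of the column) the fold was bounded by dividing by that floor.

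The 6 genes, 10 pathway lists and 8 marker lists (89 of 153 memberships measured, some shared) were chosen with earlier results of these data known. Genes named are the 6, all of any list with 5 or fewer measured, up to 4 each way and 3 within 2-fold of larger lists, and the 3 nearest each member. Dim genes, Gpd1, Sox3, Klf1, Klf12, Klf16 and the Fbxo genes were named after their values were seen. Alternatives were median centring, quantile normalisation, lowess centring (span 0.3), the brightest probe, linear means, an offset of 50, other floors, a 4-fold rule, no filter and, added after seeing the data, centring by class of probe identifier. The computation was tested on simulated data. Python 3.11.15, pandas 2.3.3, numpy 2.4.6, statsmodels 0.14.6 and matplotlib 3.10.9 were used.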

Additional observations from a re-analysis of the deposited data

How the results depend on the processing

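Of the 11 alternatives that gave the 6 genes a value, 5 (the brightest probe, linear means, both other floors and no filter) leave them as they were by construction, since each has 1 probe and passes every filter. Under the other 6, all 6 genes kept their direction, Klf2 stayed within 2-fold (0.65 to 0.96) and Klf5 had log2 differences of 3.08 or more. The spread used to judge a move was the probe SD of 1.05, divided by the square root of the number of genes for a list median. An offset of 50 took the log2 difference of Esrrb to 8.55, of Tfcp2l1 to 7.37 and of Fbxo15 to 7.58, and the medians of the naive network to 3.35 and of the formative and primed genes to 1.52. Setting values under the floor to it gave 8.50, 7.36 and 7.57 for the same 3 genes, 3.36 and 1.31 for the same 2 lists and 2.13 for the relatives and partners of ESRRB. Both settings shrink differences that start from dim values by construction. Leaving out list members under a floor at the 10th percentile gave 2.88 for the formative and primed genes, and a floor at the median gave 3.24 for them, -0.83 for the upstream signals and -1.32 for the other Klf genes, with fewer genes in each. At 4-fold, 734 genes were higher and 1010 lower, against 2159 and 2209 at 2-fold. The median of the CP2 family turned sign (-0.08, and 0.08 with classes of probe identifier centred). That of the alkaline phosphatase genes also turned, from -0.16 to 0.18, with a floor at the 10th percentile, and with a floor at the median it had no gene left.

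Probes whose identifiers start with PH_mM had a median log2 difference of 0.28 and those starting with mMC one of -0.004, and each class held 3 of the 6 genes. No paired analysis was possible because each group had 1 sample, and for the same reason leaving out a replicate was not possible. The equal quantiles of both columns leave a difference in total RNA unread, and values near the floor have no order.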
